A study of Mus musculus with 8 samples.

Results

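The step from day 24 (d24) to adult mouse testis was described for 12401 genes, each with at least 2 FPKM in either library, out of 23983 in the deposited table. The material was a piece of whole testis from wild-type C57BL/6J mice, and total RNA was sequenced as 1 library per age. The age of the adult animals in days and any pooling of animals are not given. Only the d24 and adult columns enter the comparison, and the d12 and d16 values are quoted where an earlier course helps to read a change. Each gene was given the log2 ratio of adult to d24 FPKM after adding 1 FPKM to both, and 2-fold in that measure was the limit for calling a gene higher or lower. With 1 library per age no spread between animals is available, so ratios carry exact 95% intervals for the counting of fragments alone, given in parentheses where fragments could be recovered.

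In the juvenile testis the initial wave of germ cells moves through meiosis in near synchrony, and round spermatids are its most advanced cells for some days. The adult testis holds every step of spermatid differentiation at once, including elongating and condensing spermatids, whose nuclei are repacked while the flagellum and acrosome are completed. Between the tubules, the Leydig cells of the juvenile period are replaced by the adult population that makes testosterone. In RNA from whole tissue, fewer cells of a type and less RNA per cell cannot be told apart.

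At least 2-fold higher values in the adult were found for 1423 of the 12401 genes (11.5%) and at least 2-fold lower values for 54 (0.435%). The remaining 10924 lay between these limits, and 8934 of all genes (72%) lay within 0.5 log2 units of no change. The median log2 difference was 0.01, with quartiles of -0.23 and 0.41. At 4-fold the counts were 332 higher and 4 lower, and 49 genes were at least 8-fold higher. Some genes sat close to the limits. There were 175 genes with log2 differences from 1.0 to 1.1 and another 175 from 0.9 to 1.0, while 16 and 32 genes lay just beyond and just short of the lower limit. By level, 11277 genes reached 2 FPKM at both ages, 640 crossed this level upward and 484 crossed it downward. These 640 and 484 genes passed the filter through 1 library only, which fixed the direction of their difference.

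The preceding steps were counted in the same way. From d12 to d16, 1153 of 11609 genes (9.93%) were at least 2-fold higher and 139 (1.2%) lower. From d16 to d24 the numbers were 3346 (26.6%) and 559 (4.45%) of 12566 genes. The deposited values sum to 283580 FPKM at d12 and 307964 at d16, less than at d24, and rescaled counts were not made for these steps. The genes higher in the adult had mostly begun to rise before d24. Their median level over the 4 ages ran 0.234, 0.2804, 10.98 and 37.5 FPKM. At d12 74.6% of them were under 2 FPKM, beside 22.5% of all genes in the comparison. The 54 lower genes ran the other way, with medians of 15.5, 11.3, 5.52 and 1.19 FPKM. Of the 54, 42 had a higher value at d12 than at d24, beside 4889 of all 12401 genes. The same count against the adult value, 48 beside 4885, is partly built in, since the 54 were chosen for low adult values.

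**Figure D1:**
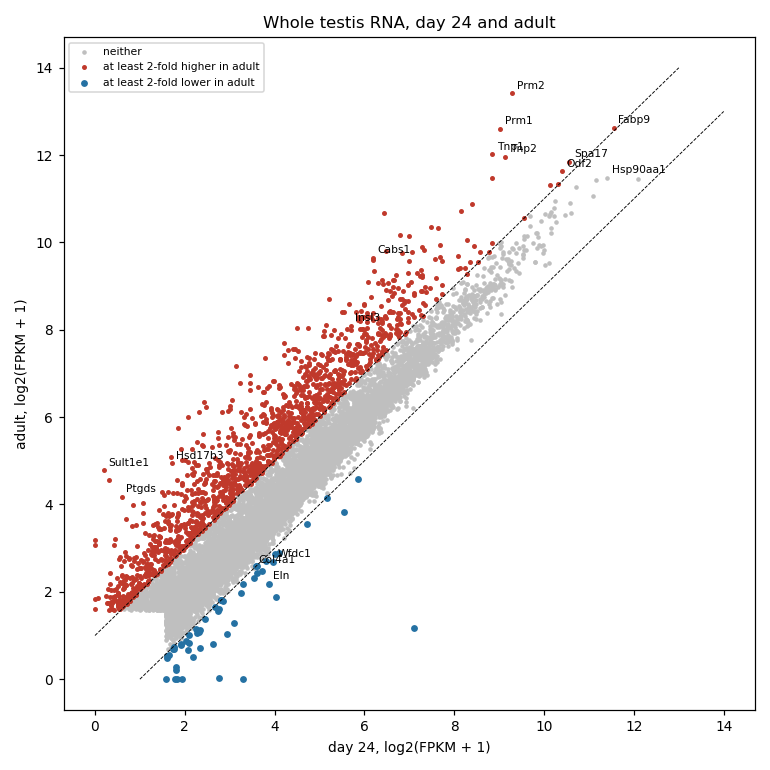
FPKM values of 12401 genes at d24 and in the adult on a log2 scale after adding 1 FPKM. Dashed lines mark 2-fold, with 1423 genes above the upper line and 54 below the lower line.

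How the libraries are scaled matters for these counts. The deposited values sum to 472726 FPKM at d24 and 659202 FPKM in the adult, and the scaling used inside the authors' software is not stated. The equal-sum scaling used below brings both to a sum of 1000000 FPKM. It multiplies every adult to d24 ratio by 0.717 and also makes all values larger beside the added 1 FPKM. The median of all genes then moves by -0.45 to -0.44, and the share of genes above 0 falls from 50.9% to 24.1%. The counts become 904 higher (7.29%) and 666 lower (5.37%). With both sums brought to their geometric mean instead, an alternative chosen after the values were seen, the factor is the same and the counts are 825 and 431. For this reason lists of genes are described beside the median of all genes. Counts within a list are to be read beside the shares over all genes. These were 11.5% higher and 0.435% lower as deposited, and 7.29% and 5.37% under the equal-sum scaling. Directions that reverse under this rescaling are marked as such, and genes under 2-fold are given as values.

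The tissue label was checked against markers. Protamine Prm2 was the most abundant gene in the adult with 10910.3 FPKM, or 1.66% of the FPKM sum, and Fabp9, a fatty acid binding protein of sperm, was next with 6342 FPKM. At d24 the highest values belonged to the small RNA Rn4.5s (4339 FPKM), Fabp9 (2997 FPKM), the chaperone Hsp90aa1 (2705 FPKM) and the sperm lactate dehydrogenase Ldhc (2267 FPKM). Of 16 epididymis and rete genes, 8 were listed at 0 in both libraries, among them Lcn5, Lcn8, Lcn9 and Crisp4, and 4 passed the level limit with a median of 0.56 and none past 2-fold. The summed level of those 16 genes was 92.7 FPKM at d24 and 126 FPKM in the adult, most of it from Epcam and Wfdc10. Epcam is also made by spermatogonia, and Wfdc10 had its highest value at d12 (132 FPKM). Whether any epididymal tissue contributed was not tested.

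Nuclear condensation gave the largest change of any list by its median. Its 7 genes were all at least 2-fold higher in the adult, with a median log2 difference of 2.83, and their summed level went from 2499 to 27137 FPKM, or 10.9-fold. Under the equal-sum scaling the median was 2.35 and 7 of 7 kept their call. Histones in spermatid nuclei are exchanged for transition proteins and these in turn for protamines. The protamines Prm2 and Prm1 rose from 624 to 10910.3 FPKM (17.5-fold, 17.1 to 17.9) and from 517 to 6208 FPKM (11.998-fold, 11.6 to 12.4), and the transition proteins Tnp1 and Tnp2 from 461 to 4147 FPKM (9.01-fold, 8.71 to 9.32) and from 562 to 3997 FPKM (7.11-fold, 6.91 to 7.31). Protamines therefore gained more than transition proteins. Prm3, which lies in the protamine cluster and encodes an acidic protein of the spermatid cytoplasm, rose 6.13-fold (5.76 to 6.53). The spermatid linker histones differed from each other, with H1fnt rising 6.08-fold (5.85 to 6.32) and Hils1 3.03-fold (2.78 to 3.29).

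Other testis histones did not share this course. Of 8 genes above the level limit, 1 was higher (12.5%, beside 11.5% over all), and the list median of -0.10 lay near that of all genes. The exception was H2afb1, a short H2A variant, which rose from 13.005 to 80.96 FPKM, although 43.8% of its 50-base stretches also occur in other genes. The related entries Gm14920 and H2afb3, under the level limit, did not rise. They had 8 and 9 fragments at d24 and 1 and 0 in the adult. Hist1h1t, the linker histone of pachytene spermatocytes, had 599 and 561 FPKM (ratio 0.936, 0.901 to 0.973), and Hist1h2ba, the testis H2B, had 515 and 415 FPKM (ratio 0.806, 0.761 to 0.853). These variants are loaded in meiosis, ahead of the exchange for transition proteins, and their genes already had high values at d16.

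Kinases of the Tssk family act in late spermatids. The 6 kinases and their substrate Tsks were higher in 7 of 7 cases with a median of 2.196, and their summed level went from 334 to 1554 FPKM. Tssk3 rose from 49.7 to 386 FPKM (7.76-fold, 7.26 to 8.31), Tssk6 from 3.53 to 24.6 FPKM (6.98-fold, 5.58 to 8.86), Tssk2 from 124 to 634 FPKM (5.09-fold, 4.899 to 5.296) and Tsks from 31.1 to 146 FPKM (4.698-fold, 4.39 to 5.04). Loss of Tssk6 is known to disturb nuclear condensation in mice. Under the equal-sum scaling 5 of the 7 remained past 2-fold. The Cypt genes, which encode basic proteins of the perinuclear theca, were higher in 8 of 8 cases with a median of 1.77, and in 7 under the equal-sum scaling. Among 17 genes of the t complex and related motility genes, a region whose variants alter sperm transmission, 7 were higher with a median of 0.74, and 4 under the equal-sum scaling. Tcp11, which binds a regulator of sperm motility, rose from 303 to 678 FPKM (2.24-fold) and Fgd2, an exchange factor for small GTPases, from 2.13 to 5.43 FPKM (2.54-fold, 1.97 to 3.29). The chaperonin gene Tcp1 had 1138 and 1185 FPKM (ratio 1.04, 1.03 to 1.06).

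The flagellum separated into layers. Genes of the outer dense fibres and the fibrous sheath, which are laid down during elongation, were higher in 12 of 17 cases with a median of 1.40, and in 8 under the equal-sum scaling. Odf1 rose from 99.6 to 565 FPKM (5.67-fold, 5.41 to 5.95), Fscb, a calcium-binding sheath protein, from 28.1 to 135 FPKM (4.79-fold, 4.55 to 5.05), and Akap3, a sheath scaffold, from 118 to 389 FPKM (3.31-fold, 3.21 to 3.402). Ropn1, which binds the scaffold proteins, rose 3.34-fold (3.096 to 3.599). Odf2 and Spa17 reached the highest levels of the list, 3169 and 3689.7 FPKM, from 1347 and 1512 FPKM at d24. Odf4 and Ropn1l stayed under 2-fold with 179.8 and 281 FPKM (ratio 1.56, 1.49 to 1.64) and 543 and 872 FPKM (ratio 1.61, 1.56 to 1.65), and they were already at 36.3 and 87.3 FPKM at d16.

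Axonemal genes, by contrast, were mostly in place at d24. Of 30 genes 1 was higher and 0 lower, or 0 and 1 under the equal-sum scaling. The higher gene was the filament protein gene Tekt5 (40.9 to 104 FPKM, 2.54-fold, 2.37 to 2.72), and the list median was 0.22, turning to -0.25 under the equal-sum scaling and to -0.07 under scaling by the upper quartile. All 30 had risen at least 2-fold from d16 to d24, as had 16 of the 17 dense fibre and sheath genes. The dynein heavy chains Dnah8, Dnah17, Dnah2 and Dnah1 had adult to d24 ratios of 0.871, 0.844, 0.815 and 0.668. The radial spoke gene Rsph1 had 2189 and 2137 FPKM. Axonemes are assembled in round spermatids, whereas the dense fibres and the sheath follow.

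For the mitochondrial sheath the list was mixed, with 7 of 19 genes higher and a median of 0.43, which became -0.04 under the equal-sum scaling. Prkar2a, a regulatory subunit of protein kinase A, rose from 11.5 to 102 FPKM (8.89-fold, 8.35 to 9.47), Spata18, a regulator of mitochondrial quality, from 34.6 to 273 FPKM (7.898-fold, 7.45 to 8.38), and Smcp, a structural protein of the sheath, from 159.7 to 915 FPKM (5.73-fold, 5.498 to 5.97). Spata19 and Tbc1d21, needed for sheath assembly, rose 4.02-fold (3.703 to 4.36) and 3.71-fold (3.29 to 4.19). The named testis isoforms of respiratory chain parts changed less. Cox6b2 had 1187 and 1566 FPKM, Cox7b2 544 and 506 FPKM and the testis cytochrome Cyct 159 and 152 FPKM. Cox8c had the lowest log2 difference of the list, -0.28, or -0.76 under the equal-sum scaling. These isoforms come on in spermatocytes, before mitochondria gather around the flagellum. Kif5c, a kinesin heavy chain, rose from 2.63 to 8.67 FPKM (3.2996-fold, 2.895 to 3.77) after falling from 7.48 FPKM at d12.

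Sperm energy genes split by enzyme. In glycolysis 7 of 19 genes were higher with a median of 0.71, and 6 kept the call under the equal-sum scaling. Sperm isoforms bound to the fibrous sheath were among the higher genes, with Gapdhs going from 60.96 to 259.95 FPKM (4.26-fold, 4.03 to 4.51), the aldolase retrogenes Aldoart1 and Aldoart2 from 15.5 to 58.1 FPKM (3.75-fold, 3.3996 to 4.12) and from 26.4 to 93.98 FPKM (3.56-fold, 3.28 to 3.87), and hexokinase Hk1 from 112 to 419 FPKM (3.73-fold, 3.63 to 3.82). Pgk2, a retrogene on the same pathway, rose 2.47-fold (2.38 to 2.57), and Gpi1, which has no testis isoform here, rose as much as Gapdhs did, by 4.35-fold (4.07 to 4.66). Ldhc, Pgam2 and the glucose carrier Slc2a3 had their large rise between d16 and d24, and stood at 2267 and 2769, 821 and 1324 and 357 and 302 FPKM in the present step. The lactate carriers diverged, since Slc16a7 of sperm rose from 154 to 474 FPKM (3.07-fold, 3.03 to 3.12) and Slc16a1 had 15.4 and 12.6 FPKM (ratio 0.817, 0.738 to 0.906).

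Of 19 genes for protection against oxidation 5 were higher with a median of 0.52, and 2 under the equal-sum scaling. The sperm thioredoxins Txndc2 and Txndc8 rose from 70.2 to 431 FPKM (6.14-fold, 5.87 to 6.42) and from 44.7 to 126 FPKM (2.82-fold, 2.52 to 3.14), while the general enzymes Sod2 and Gstm2 had 30.9 and 33.2 FPKM and 169 and 187 FPKM. Thioredoxins of this kind sit in the tail sheath and the acrosome of late spermatids. Gstm5, a transferase of sperm, rose from 754 to 1518 FPKM (2.01-fold, 1.97 to 2.06). Gpx3 and Gsta3, which are made outside germ cells, rose from low levels of 1.5002 and 6.203 FPKM to 4.21 and 16.1 FPKM.

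Ion transport and signalling genes had list medians below 0.5 but more higher genes than the 11.5% over all. Among 17 channel and transporter genes 6 were higher (35.3%), 2 of them under the equal-sum scaling, with a median of 0.29 that became -0.18 under that scaling and -0.00 under the upper quartile. The sodium pump subunit Atp1a4, needed for motility, rose from 57.01 to 300.04 FPKM (5.26-fold, 5.08 to 5.46). Within the CatSper calcium channel the ratios varied among subunits. The pore subunits Catsper1 and Catsper4 rose 2.61-fold (2.45 to 2.79) and 2.48-fold, both under 2-fold after rescaling to equal sums, the pore subunits Catsper2 and Catsper3 had ratios of 1.23 (1.17 to 1.29) and 1.95, and the cytoplasmic subunit Efcab9 rose 3.03-fold (2.89 to 3.18). The auxiliary subunits Catsperb and Catsperd had ratios of 1.11 and 1.102, having reached 8.89 and 4.65 FPKM at d16, when Catsper1 was still listed at 0. The potassium channel gene Kcnu1 and its partner Lrrc52 moved together, by 2.32-fold (2.11 to 2.55) and 2.44-fold (1.99 to 2.98).

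Of 18 genes of cAMP and calcium signalling 4 were higher (22.2%), 3 under the equal-sum scaling, and the median of 0.14 became -0.34 under the equal-sum scaling and -0.16 under the upper quartile. Besides Prkar2a these were Plcz1, the phospholipase with which sperm activate the egg (49.6 to 203 FPKM, 4.08-fold, 3.88 to 4.3002), Plcd4, a phospholipase of the acrosome reaction (56.9 to 139 FPKM, 2.45-fold, 2.33 to 2.56), and Camk4 (1.17 to 4.17 FPKM, 3.58-fold, 3.09 to 4.14). The regulatory subunits of protein kinase A moved apart, as Prkar1a had 48.2 and 40.02 FPKM while Prkar2a rose. The catalytic gene Prkaca had 77.3 and 87.1 FPKM (ratio 1.13, 1.07 to 1.19). Of the calmodulin genes Calm2 was the highest, with 1541 and 1629 FPKM.

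The acrosome is built in round spermatids and reshaped during elongation. Of 27 acrosome genes 16 were higher with a median of 1.13, and 7 of these remained past 2-fold under the equal-sum scaling. Spaca9, listed as 1700026L06Rik, rose from 28.9 to 119 FPKM (4.14-fold, 3.66 to 4.67), Fam170b from 71.003 to 225 FPKM (3.17-fold, 3.01 to 3.34), the hyaluronidase Hyal5 from 16.8 to 53.8 FPKM (3.202-fold, 2.91 to 3.52) and Spaca7 from 166 to 466 FPKM (2.81-fold, 2.67 to 2.96). The lysozyme-like genes Lyzl1 and Lyzl4, whose products lie in the acrosome, rose 2.67-fold (2.45 to 2.91) and 2.53-fold (2.105 to 3.03). Genes of the early granule had been raised before, and acrosin (Acr), its binding protein Acrbp and Zpbp2 stood at 93.7 and 119.8, 221 and 281 and 283 and 339 FPKM. Pkdrej, a receptor-like protein of the acrosomal membrane, had 15.97 and 13.4 FPKM (ratio 0.838, 0.774 to 0.906).

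Genes for binding to and fusing with the egg were higher in 12 of 22 cases with a median of 1.29, and in 9 under the equal-sum scaling. The testis form of angiotensin-converting enzyme, Ace, rose from 20.5 to 103 FPKM (5.02-fold), and Prss37, a protease-like protein needed for passage into the oviduct, from 38.3 to 186 FPKM (4.87-fold, 4.48 to 5.28). Among genes for fusion proteins of the sperm head, Izumo1, Izumo2 and Izumo3 rose 2.35-fold (2.16 to 2.55), 4.303-fold and 3.56-fold (3.25 to 3.896), Spaca6 rose 2.88-fold (2.47 to 3.36) and Dcst1 rose 2.91-fold (2.66 to 3.195). Adam2 and Adam3, at 49.01 and 13.6 FPKM by d16, had 220.5 and 211 and 262 and 461 FPKM, while Adam6a and Adam6b, which share 29.5% and 29.6% of their 50-base stretches with each other, rose 3.72-fold (3.41 to 4.06) and 3.74-fold (3.39 to 4.12). Among chaperones of these surface proteins, Clgn of spermatocytes had 611 and 554 FPKM (ratio 0.907, 0.892 to 0.922), and the spermatid paralogs Calr3 and Pdilt rose from 35.4 to 157 FPKM (4.44-fold) and from 56.4 to 153 FPKM (2.705-fold, 2.57 to 2.85). Tex101, a surface protein that leaves sperm during maturation, had 82.2 and 49.8 FPKM (ratio 0.606, 0.547 to 0.671).

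Shaping of the head depends on the manchette, a skirt of microtubules, and on the perinuclear theca. Of 31 genes 19 were higher with a median of 1.28, and 12 of these remained past 2-fold under the equal-sum scaling. Spem1 and its neighbour Spem2, listed as 4933402P03Rik, had the largest changes, from 20.3 to 189 FPKM (9.34-fold, 8.42 to 10.4) and from 18.6 to 186 FPKM (9.97-fold, 9.17 to 10.9). Spem1 is needed for shedding of the cytoplasm. Among actin-related genes Actrt3 rose 5.099-fold (4.47 to 5.83), Actrt2 4.304-fold (3.99 to 4.64), Actl9 3.11-fold (2.95 to 3.29) and Actl7a 2.96-fold (2.77 to 3.16). Actrt1 and Actl7b had log2 differences of 1.34 and 1.14, which fell short of 2-fold under the equal-sum scaling, at 0.95 and 0.66. Theca proteins followed, with Cylc1 going from 33.9 to 124 FPKM (3.66-fold, 3.43 to 3.92), Cylc2 from 78.4 to 239 FPKM (3.05-fold, 2.88 to 3.23) and calicin (Ccin) from 18.8 to 68.5 FPKM (3.65-fold, 3.34 to 3.99). Hook1, which links the manchette to the nucleus, rose from 104 to 277 FPKM (2.66-fold, 2.58 to 2.73), from a level that was already 30.7 FPKM at d12. The intraflagellar transport genes Ift88 and Kif3a changed little, with 52.3 and 58.4 FPKM and 49.3 and 50.7 FPKM.

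**Figure D2:**
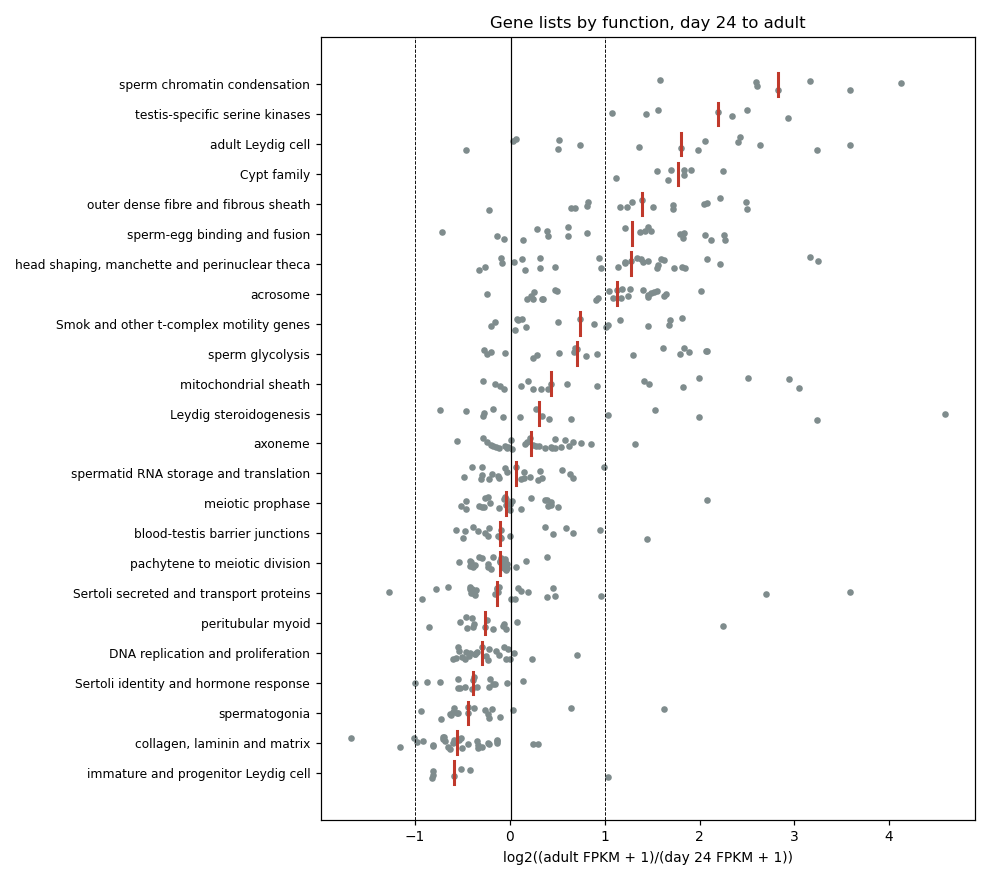
Log2 differences of genes in 24 lists, with the median of each list in red. The highest median was 2.83 for chromatin condensation and the lowest was -0.59 for immature and progenitor Leydig cells, beside 0.01 over all 12401 genes.

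Removal of cytoplasm and protein turnover gave 7 higher genes of 22, or 6 under the equal-sum scaling, with a median of 0.39 that became -0.09 under the equal-sum scaling. The ubiquilin-like gene Ubqlnl rose from 8.38 to 109.8 FPKM (13.1-fold, 11.8 to 14.6) and Oaz3, the antizyme that limits polyamines in spermatids, from 126 to 1129 FPKM (8.99-fold, 8.61 to 9.39). Klhl10, a ubiquitin ligase adaptor whose loss of 1 copy impairs male fertility, rose 3.59-fold (3.41 to 3.78), and the conjugating enzyme Ube2j1 rose 2.82-fold (2.72 to 2.94). Proteasome genes had smaller ratios. Psme4, the activator used when histones are degraded, had 147 and 220.3 FPKM (ratio 1.496, 1.46 to 1.53), and Psma8, the subunit of the meiotic proteasome, had 144 and 123 FPKM (ratio 0.854, 0.809 to 0.902).

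Transcription ceases as spermatid nuclei condense, and proteins are then made from stored messages. None of 23 genes for storage and translation was past 2-fold in either direction, and their median of 0.06 became -0.42 under the equal-sum scaling and -0.24 under the upper quartile. The Y-box proteins Ybx2 and Ybx3 had 615 and 764 and 1133 and 1655 FPKM. Paip2, which releases poly(A)-binding protein from messages, came closest with 67.7 and 136 FPKM. Among 20 regulators of transcription 5 were higher, 2 of them under the equal-sum scaling, and the median of 0.29 became -0.18 under that scaling and -0.00 under the upper quartile. Spz1, a helix-loop-helix factor, rose from 282 to 1682 FPKM (5.98-fold, 5.84 to 6.12), Fhl5, the coactivator of Crem, from 18.5 to 75.9 FPKM (4.095-fold, 3.64 to 4.62), and Chd5, a chromatin remodeller of histone removal, from 20.6 to 51.6 FPKM (2.503-fold, 2.399 to 2.61). Crem and Rfx2, which act in round spermatids, had 84.05 and 130.4 and 72.2 and 82.5 FPKM.

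Among testis copies of housekeeping genes 4 of 17 were higher (23.5%, beside 11.5% over all), 3 under the equal-sum scaling, and the median of 0.35 became -0.13 under the equal-sum scaling. The heat shock gene Hspa1l and the tubulin gene Tuba8 rose from 60.1 to 346 FPKM (5.76-fold, 5.52 to 6.004) and from 51.05 to 252 FPKM (4.94-fold, 4.66 to 5.25). The tubulins Tuba3a and Tuba3b of the spermatocyte had 1019 and 901 and 1007 and 863 FPKM, though 33.6% and 29.5% of their 50-base stretches are shared, mostly with each other. Of the Bcl2 family, 1 of 11 genes was higher (9.09%, beside 11.5% over all), and the median was -0.16. This gene was Bcl2l14, with a rise from 62.4 to 385 FPKM (6.16-fold, 5.91 to 6.43). Among 82 cytoplasmic ribosomal protein genes 1 was higher, or 0 higher and 3 lower under the equal-sum scaling, and their median of 0.02 became -0.46 under the equal-sum scaling and -0.28 under the upper quartile.

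Families named after testis clones carried many of the higher genes. Of 298 RIKEN clone genes with the prefix 1700, 158 were higher (median 1.06), 116 under the equal-sum scaling, and of 367 with the other testis prefixes of that catalogue, 164 were higher (median 0.88), 107 under that scaling. The Spata family had 18 of 26 higher, 12 under that scaling, with a median of 1.45, led by Spata32 (7.04 to 71.7 FPKM, 10.2-fold, 8.61 to 12.1) and Spata3 (44.2 to 340.3 FPKM, 7.695-fold). In the Tex family 9 of 28 were higher and 0 lower, or 6 higher and 3 lower under the equal-sum scaling. The family median of 0.28 became -0.1999 under the equal-sum scaling and -0.02 under the upper quartile. Tex37 (7.41-fold, 6.37 to 8.68) and Tex43 (3.81-fold, 3.5996 to 4.04) were among the higher members, and genes of spermatogonia and meiosis in the family included Tex11 with 20.3 and 13.9 FPKM and Tex19.1 with 5.89 and 3.68 FPKM. Serine proteases of the Prss family were higher in 9 of 20 cases (median 0.64) and lower in 2, and 5 stayed higher under the equal-sum scaling. Prss58 and Prss52 rose from 13.7 to 104 FPKM (7.62-fold, 6.68 to 8.72) and from 23.1 to 154 FPKM (6.67-fold, 6.02 to 7.39), and Prss35 fell from 25.2 to 10.8 FPKM (ratio 0.426, 0.3703 to 0.489). Of 1117 olfactory receptor genes in the table, 25 passed the level limit, of which 9 were higher (median 0.77), 4 of them under the equal-sum scaling, and 754 were listed at 0 in both libraries.

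Meiotic genes changed little. Among 27 genes of meiotic prophase the median was -0.04, and the synaptonemal complex genes Sycp3 and Sycp1 had 505 and 507 FPKM (ratio 1.004, 0.972 to 1.04) and 309 and 296 FPKM (ratio 0.959, 0.936 to 0.982). Such genes mark the spermatocytes present at both ages. The single higher gene was Syce2, with 36.4 FPKM at d24 and 157 FPKM in the adult after 38.7 and 39.5 FPKM at d12 and d16. Genes of late pachytene and the divisions were past 2-fold in 0 of 26 cases, with a median of -0.11, and 1 was lower under the equal-sum scaling. Cyclin Ccna1 had 52.7 and 50.9 FPKM (ratio 0.966, 0.885 to 1.05) and the chaperone Hspa2 941 and 981 FPKM (ratio 1.04, 1.03 to 1.06). In the deposited values no gene of either list was past 2-fold lower. The recombinase Dmc1 of leptotene had 17.5 and 12.4 FPKM, and Tex11 of zygotene showed the ratio 0.686.

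Genes of spermatogonia had a median of -0.44 over 19 genes, with 1 higher and 0 lower past 2-fold, and under the equal-sum scaling 8 were lower. Stra8, which starts meiosis, had 18.99 and 12.3 FPKM (ratio 0.645, 0.537 to 0.767), the stem cell factor Zbtb16 had 2.81 and 1.51 FPKM (ratio 0.538, 0.431 to 0.668), and Sohlh1 had 2.09 and 0.6099 FPKM (ratio 0.292, 0.113 to 0.641). Their values had been falling since d12, when Stra8 stood at 86.4 FPKM. Gfra1, the receptor of stem cells for a Sertoli growth factor, had 1.18 and 2.41 FPKM (ratio 2.05, 1.56 to 2.701), and Pou5f1 rose from 0.572 to 3.85 FPKM (6.72-fold). Replication and proliferation genes had a median of -0.30 over 25 genes and none past 2-fold, and 4 were lower under the equal-sum scaling. The helicase genes Mcm2, Mcm3 and Mcm4 had ratios of 0.645 (0.537 to 0.771), 0.691 (0.617 to 0.771) and 0.644 (0.532 to 0.775), while Pcna had 136 and 140.3 FPKM (ratio 1.03, 0.9698 to 1.09).

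Lists of Sertoli, peritubular and matrix genes lay below the median of all genes, and those of adult Leydig cells lay above it. Sertoli identity and hormone response had a median of -0.38 over 17 genes, with 0 higher and 1 lower past 2-fold, or 5 lower under the equal-sum scaling, and its summed level went from 213 to 162 FPKM. The thyroid hormone receptor Thra, which times the end of Sertoli division, fell from 5.999 to 2.497 FPKM (ratio 0.416, 0.309 to 0.562). Sox9 had 4.75 and 2.14 FPKM (ratio 0.4495, 0.349 to 0.573) and Fshr, the receptor for follicle-stimulating hormone, 2.04 and 1.19 FPKM (ratio 0.581, 0.35999 to 0.905), whereas Wt1 and Gata4 had ratios of 0.858 (0.758 to 0.9704) and 0.8701 (0.689 to 1.08). Amh, a hormone of immature Sertoli cells, was at 3.12 FPKM at d12, 0.273 FPKM at d24 and listed at 0 in the adult. Inhba likewise had 2.19 FPKM at d12 and 0.357 FPKM at d24 and was listed at 0 in the adult.

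Secreted and transport proteins of Sertoli cells were less changed, with a median of -0.14 over 27 genes, 2 higher and 1 lower, or 4 lower under the equal-sum scaling. Clusterin (Clu) was the highest secreted product with 419.6 and 457 FPKM (ratio 1.09, 1.06 to 1.12), and the cystatin-related genes Cst9 and Cst12 had 99.6 and 106 and 167 and 125 FPKM. Shbg, the carrier of sex steroids, fell from 8.54 to 2.95 FPKM (ratio 0.345, 0.238 to 0.488). Ctsl, the protease secreted in stage-dependent fashion, had 181 and 253 FPKM (ratio 1.39, 1.35 to 1.43) after 465 FPKM at d12. The higher genes were Ptgds and Prnd, and the former is also a product of adult Leydig cells. For Prnd, 95.9% of the 50-base stretches lie in transcripts that read through from Prn, so its change from 5.104 to 38.8 FPKM is uncertain. Sord, at 528 and 1030.4 FPKM, is also a spermatid gene and had the highest adult value in the list.

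Barrier junction genes had a median of -0.11 over 19 genes. The claudin of the barrier, Cldn11, had 42.04 and 27.98 FPKM (ratio 0.665, 0.5999 to 0.738) and the gap junction gene Gja1 33.4 and 31.3 FPKM (ratio 0.937, 0.866 to 1.01). Tes was the only higher member (18.2 to 51.2 FPKM, 2.81-fold, 2.58 to 3.06), and under the equal-sum scaling 0 were higher and 1 lower. Its value had been 3.27 FPKM at d12. Pvrl3, the nectin on the spermatid side of the junction, had 129 and 194 FPKM after 11.8 FPKM at d12. Growth factors of the stem cell niche had a median of -0.27 over 12 genes with none past 2-fold, and 1 lower under the equal-sum scaling. Kitl had 7.18 and 6.19 FPKM (ratio 0.862, 0.754 to 0.985) and Igf1 5.79 and 3.12 FPKM (ratio 0.539, 0.4599 to 0.629).

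Among the somatic lists, that of adult Leydig cells had the highest median. Of its 17 genes 15 passed the level limit, some only through the adult library, among them Ptgds, Klk1b24 and Klk1b27, whose direction the filter fixed. Of the 15, 9 were higher with a median of 1.81. Under the equal-sum scaling the median was 1.37, with 8 of them past 2-fold. The other 6 were not past 2-fold. The 1 gene of the 15 below 0 was the steroid dehydrogenase Hsd3b6, with a log2 difference of -0.46. Its paralog Hsd3b1, listed for immature cells, was higher in the adult. Hsd17b3, which makes testosterone in the last step of the pathway, had fallen from 13.6 FPKM at d12 to 2.27 FPKM at d24 and then rose to 29.7 FPKM (13.1-fold, 10.03 to 17.4). The enzyme belongs to adult Leydig cells, while in the fetal testis it is found in Sertoli cells. Ptgds, a prostaglandin synthase, rose from 0.509 to 17.1 FPKM (33.7-fold, 17.2 to 75.4), the epoxide hydrolase Ephx1 from 16.5 to 60.3 FPKM (3.65-fold, 3.298 to 4.05), and Bhmt, an enzyme of methionine metabolism, from 2.31 to 12.8 FPKM (5.54-fold, 4.38 to 7.04). The hormone gene Insl3 rose from 50.9 to 273 FPKM (5.36-fold, 4.88 to 5.89), with the limit that 61.8% of its 50-base stretches are also part of transcripts of Jak3, which overlaps it.

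The tissue kallikreins of Leydig cells form a cluster on chromosome 7, and the 4 genes named here were each higher. Other members of the cluster were not tallied. Klk1b21 went from 2.57 to 18.1 FPKM (7.05-fold, 5.13 to 9.97), Klk1b24 from 1.505 to 8.87 FPKM (5.896-fold, 3.75 to 9.39) and Klk1b27 from 0.871 to 10.6 FPKM (12.2-fold, 7.17 to 21.9). Klk1b8, which is among the 20 largest rises, went from 4.35 to 79.9 FPKM (18.4-fold, 14.6 to 23.5). Between 14.3% and 33.9% of the 50-base stretches of these 4 genes occur in other kallikreins, so the share of each gene is uncertain.

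Within steroid synthesis the steps were unequal. Of 16 genes 5 were higher, or 4 higher and 1 lower under the equal-sum scaling, and the list median of 0.31 became -0.11 under the equal-sum scaling. The side chain cleavage enzyme Cyp11a1 rose from 16.5 to 49.4 FPKM (2.996-fold) and Cyp17a1 from 45.05 to 182 FPKM (4.04-fold, 3.81 to 4.28). Both catalyse early reactions from cholesterol to androgen. Hsd17b3 is also counted here, and so is Sult1e1, the estrogen sulfotransferase of adult Leydig cells, which had 4 fragments at d24 and 299 in the adult, or 0.144 and 26.6 FPKM (184-fold, 71.2 to 680.4). Star, which carries cholesterol into mitochondria, had 11.1 and 15.1 FPKM (ratio 1.36, 1.22 to 1.51) and the receptor for luteinizing hormone, Lhcgr, 1.87 and 2.64 FPKM (ratio 1.41, 1.15 to 1.72). The paralogs of 3-beta-hydroxysteroid dehydrogenase moved apart, since Hsd3b1 rose from 28.1 to 58.9 FPKM (2.09-fold) and Hsd3b6 had 37.9 and 27.2 FPKM (ratio 0.718, 0.645 to 0.8002) after 3.32 FPKM at d12. Nr5a1, the regulator of these genes in Leydig and Sertoli cells, had 11.04 and 6.24 FPKM (ratio 0.565, 0.474 to 0.6697). The electron donors Fdxr and Por had ratios of 0.801 (0.646 to 0.988) and 0.8699 (0.732 to 1.03).

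Of 19 markers of immature and progenitor Leydig cells 7 passed the level limit, with a median of -0.59, 1 higher (Hsd3b1) and 0 lower past 2-fold, and under the equal-sum scaling 0 were higher and 4 lower. The summed level of the 19 was 69.4 FPKM at d24 and 83.2 FPKM in the adult, the latter mostly from Hsd3b1. Pdgfra and Tcf21, of stromal progenitors, had 14.3 and 7.68 FPKM and 8.38 and 4.296 FPKM (ratio 0.512, 0.367 to 0.701), and Srd5a1, whose reductase activity typifies immature cells, had 2.596 and 1.39 FPKM (ratio 0.535, 0.355 to 0.784). The hedgehog target Ptch1 had 3.31 and 1.46 FPKM (ratio 0.441, 0.351 to 0.549). Gli1, under the level limit, had 45 fragments at d24 and 1 in the adult (ratio 0.0548, 0.00136 to 0.321). Signals from Sertoli cells through this pathway establish Leydig cells early in life, and their source Dhh had 5.54 and 3.79 FPKM (ratio 0.684, 0.563 to 0.823).

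Supply of cholesterol was split between genes. Of 26 genes 2 were higher, or 1 higher and 2 lower under the equal-sum scaling, and the median of 0.13 became -0.34 under the equal-sum scaling and -0.17 under the upper quartile. Lipe, the hormone-sensitive lipase that frees stored cholesterol and also has a testis form in spermatids, rose from 6.97 to 35.8 FPKM (5.14-fold). Cyp51, whose product in late germ cells is a sterol intermediate, rose from 15.7 to 33.6 FPKM (2.14-fold, 1.98 to 2.303). The synthase gene Hmgcs1 had 36.1 and 31.4 FPKM (ratio 0.869, 0.807 to 0.934). The lipoprotein receptor Scarb1 had 30.6 and 48.3 FPKM.

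**Figure D3:**
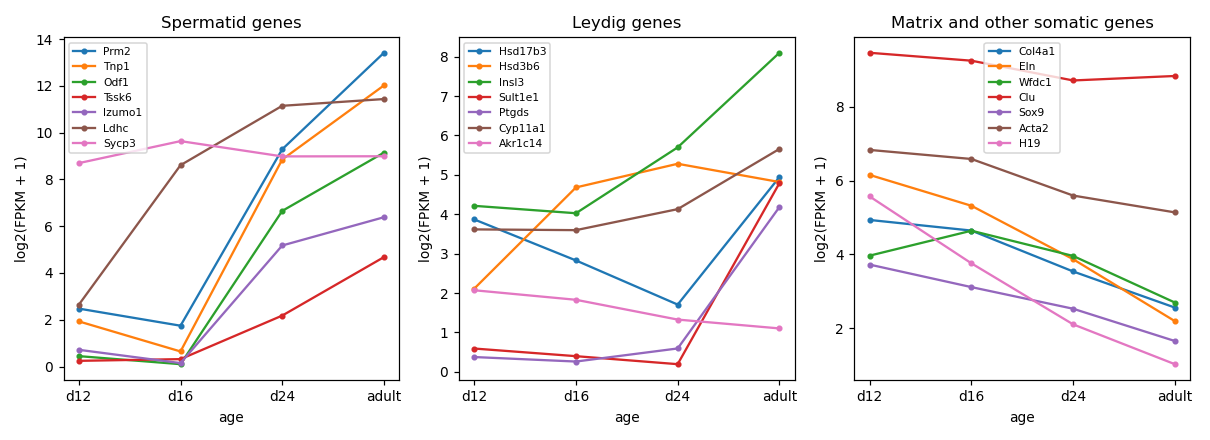
Levels of selected spermatid, Leydig and other somatic genes at the 4 ages, as log2 of FPKM plus 1. Hsd17b3 went from 13.6 FPKM at d12 to 2.27 at d24 and 29.7 in the adult, and Eln from 70.2 to 13.6 and 3.56.

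Of 30 extracellular matrix genes 3 were past 2-fold lower (beside 0.435% over all), 0 higher and 28 below 0, with a median of -0.56. Under the equal-sum scaling, where 5.37% of all genes were lower, 15 of these 30 were past 2-fold lower. Their summed level was 1716 FPKM at d12, 580.2 at d24 and 445 in the adult. Elastin (Eln) fell from 13.6 to 3.56 FPKM (ratio 0.262, 0.215 to 0.315), the collagen Col18a1 from 15.2 to 6.25 FPKM (ratio 0.411) and the laminin Lamb1 from 11.04 to 4.99 FPKM (ratio 0.452, 0.394 to 0.516). Laminins and type IV collagen form the basement membrane of the tubule. Col4a1 had 10.6 and 4.88 FPKM (ratio 0.461, 0.405 to 0.523) and its partner Col4a2 9.88 and 5.92 FPKM (ratio 0.599, 0.52997 to 0.674), while the fibrillar genes Col1a2 and Col3a1 had 28.4 and 15.8 FPKM (ratio 0.556, 0.513 to 0.603) and 34.99 and 18.1 FPKM (ratio 0.518, 0.482 to 0.557). Small proteoglycans and binding proteins changed less, with Dcn at 35.02 and 31.8 FPKM and Sparc at 169 and 153 FPKM. A smaller share of interstitial cells and lower expression per cell cannot be told apart here.

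Contractile peritubular cells had a median of -0.27 over 15 genes. Acta2 and Myh11 had 47.3 and 34.2 FPKM (ratio 0.723, 0.667 to 0.784) and 36.3 and 27.6 FPKM (ratio 0.758, 0.717 to 0.802), and the matrix protease Adamts5 5.43 and 2.55 FPKM (ratio 0.469, 0.399 to 0.55004). Actg2, a smooth muscle actin, was the exception and rose from 46.5 to 225 FPKM (4.84-fold, 4.53 to 5.17), having been 9.47 and 5.78 FPKM at d12 and d16. The cellular source of Actg2 was not tested. Imprinted growth genes, high in fetal and young tissue, had a median of -0.50 over 10 genes, with 1 lower past 2-fold, or 4 under the equal-sum scaling, and H19 fell from 3.29 to 1.03 FPKM (ratio 0.313, 0.189 to 0.495) after 46.5 FPKM at d12. Peg3 had 6.79 and 3.08 FPKM (ratio 0.454, 0.385 to 0.532), whereas Cdkn1c had 1.24 and 3.39 FPKM (ratio 2.73, 1.86 to 4.08).

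Among genes of blood vessels, 4 of 18 endothelial genes passed the level limit, with a summed level of 27.1 FPKM at d24 and 32.5 FPKM in the adult and a median of 0.17 that became -0.22 under the equal-sum scaling and -0.07 under the upper quartile. Macrophage and antigen presentation genes numbered 14 with a median of 0.08, which became -0.38 and -0.20. Their summed level rose from 269.7 to 660.4 FPKM, mostly through Aif1 (100.5 to 459.9 FPKM, 4.58-fold), a gene that late germ cells are also known to express. The macrophage receptor Csf1r had 2.61 and 1.997 FPKM (ratio 0.766, 0.576 to 1.01) and the mannose receptor Mrc1 14.9 and 16.2 FPKM (ratio 1.09, 0.999 to 1.19). Cd74, of antigen presentation, rose from 0.752 to 2.93 FPKM (3.902-fold). Among 5 erythrocyte genes 1 was higher and 1 lower, with a median of 0.17 that became -0.26 and -0.09. Hba-a1 had 52.8 and 59.4 FPKM and 236 FPKM at d12, with 72.3% of its 50-base stretches shared with Hba-a2, and the beta-globin values cannot be assigned between near copies. Of 8 stress and early response genes 1 was higher (12.5%, beside 11.5% over all), or 0 under the equal-sum scaling. It was Hspa1a, a near copy of Hspa1b, with 2.24 and 5.73 FPKM. The list median of 0.31 became -0.14 under the equal-sum scaling. The metallothioneins Mt1 and Mt2 had 279 and 336 and 343 and 398 FPKM.

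Other large rises included genes of several kinds. Cabs1, a calcium-binding protein of the flagellum, rose from 72.001 to 799 FPKM (11.1-fold, 10.6 to 11.6), and Car2, a carbonic anhydrase, from 2.59 to 53.1 FPKM (20.5-fold). The long noncoding transcripts 1700027A15Rik and Wbscr25 rose from 85.3 to 1631 FPKM (19.1-fold) and from 35.97 to 414 FPKM (11.5-fold, 10.9 to 12.1). Further genes among the 20 largest rises lack a described function, such as 1700012A03Rik (18.3-fold, 15.7 to 21.5), 1700080E11Rik (19.9-fold, 15.2 to 26.4) and 4930571K23Rik (10.7-fold, 10.3 to 11.1). Lrrc57, which is also expressed outside the testis, rose from 12.7 to 162 FPKM (12.7-fold, 11.6 to 13.99). Dbil5, a peptide similar to an acyl-CoA binding protein, was among the 10 highest adult genes after rising from 455 to 2866 FPKM (6.301-fold, 6.11 to 6.497).

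Of the largest falls, several fit no germ cell list. Wfdc1, a secreted protease inhibitor, fell from 14.5 to 5.47 FPKM (ratio 0.377, 0.2798 to 0.499), S100a10, a membrane-linked calcium-binding protein, from 56.7 to 22.9 FPKM (ratio 0.405, 0.334 to 0.487), and the glycogen phosphorylase Pygb from 10.6 to 4.003 FPKM (ratio 0.376, 0.312 to 0.4504). Atp1b2, a sodium pump subunit, fell from 16.03 to 6.405 FPKM (ratio 0.3996, 0.338 to 0.46999) and Fhl2, a cofactor of somatic cells, from 11.2 to 4.43 FPKM (ratio 0.394). At d12 these 5 genes had 14.6, 190, 33.0, 31.1 and 29.3 FPKM, in the order named. Polr2a, the large subunit of RNA polymerase II, fell from 35.1 to 16.7 FPKM (ratio 0.477, 0.446 to 0.511), and it had been 23.2 FPKM at d16.

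Some of the largest changes concern genes that share sequence with others. Rps27rt fell from 136 to 1.24 FPKM (ratio 0.00911, 0.00240 to 0.0227), but 91.1% of its 50-base stretches occur in other genes, mostly in its parent Rps27. Eif3j1 rose from 0.237 to 22.6 FPKM (95.3-fold, 53.4 to 174), and 36.9% of its stretches occur elsewhere, mostly in Eif3j2. The histone gene Hist1h3h and 4930486L24Rik, with 93.9% and 88.3% shared, fell from 12.2 to 4.596 FPKM and from 15.3 to 2.695 FPKM, and Gm614, with 65.1% shared, rose from 21.6 to 264 FPKM. For Hnrnpa1 the share was 28.2%, and it fell from 45.6 to 13.2 FPKM. The authors allowed 1 alignment for each pair of reads and used the correction of their software for multiply mapped reads, and which copy the fragments of a gene came from was not tested. Lars2, a mitochondrial leucine tRNA synthetase, shared 0.196% of its stretches and rose from 17.4 to 206 FPKM (11.9-fold, 11.2 to 12.6), but it had 175 and 200.5 FPKM at d12 and d16, so that d24 was the library that departed from the others.

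The higher and the lower genes were both short and simple in structure. Higher genes had a median transcript length of 1597 bases with 5 exons, beside 2590 bases with 8 exons for all genes in the comparison. Of the higher genes 134 of 1410 (9.5%) had 1 exon, beside 4.36%. The 54 lower genes had a median of 1412.5 bases with 5 exons, and 11 of them (20.4%) had 1 exon. Clone names ending in Rik made up 24.9% of the higher genes beside 8.3%, and 236 of the 1423 were annotated as long noncoding RNA, beside 693 of all 12401. By position, 90 of 491 X-linked genes were higher (18.3%) and 9 of 29 Y-linked genes (31%), beside 11.5% over all. Among autosomes the share ran from 6.91% on chromosome 19 to 16.1% on chromosome 14. X-linked genes therefore formed 6.38% of the higher genes that could be placed and 3.98% of all. Among the 54 lower genes 5 were X-linked (9.26%) and 1 was Y-linked (1.85%). Together the higher genes held 10.7% of the FPKM sum at d24 and 28.6% in the adult, a rise that follows from how they were chosen.

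Promoters were searched for the site of cAMP response element factors, through which Crem acts in spermatids. A gene was counted if any of its promoters matched, and 1119 of the 1423 higher genes had a searched promoter. The search covered 250 bases before the annotated start, on both strands. The letters TGACGTCA occurred for 2.95% of the higher genes searched (33 of 1119). They occurred for 3.21% of genes in the comparison (320 of 9955) and for 1.77% of all 27025 genes searched. None of 7 genes of the condensation list and none of 22 acrosome genes had the full site. The letters TATAAA, searched after the values were seen, occurred for 12.5% of higher genes (140 of 1119) and 25.7% of lower genes (9 of 35). The shares were 8.53% of genes in the comparison and 14.3% of all genes searched. Higher genes whose promoters hold TGACGTCA include Ccin, Izumo1, Kif17, Spag4 and Kif5c. Kif17 is a motor known to carry the coactivator of Crem, and it rose from 25.4 to 86.8 FPKM (3.41-fold). A match describes the sequence alone, and binding was not measured.

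The 120 bases before the start of the first 4 of these genes and of genes without the site are given in reference sequence of GRCm38.p6 from RefSeq, read in the direction of transcription, with matches to TGACGTCA or TATAAA on either strand in capitals. The intervals are chr4:43983384-43983503 for Ccin, chr7:45621691-45621810 for Izumo1, chr4:138262131-138262250 for Kif17 and chr2:156065093-156065212 for Spag4, where the site begins 50, 96, 86 and 37 bases before the start.

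Ccin: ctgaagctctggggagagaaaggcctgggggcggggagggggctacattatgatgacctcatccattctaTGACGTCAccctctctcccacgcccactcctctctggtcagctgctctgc

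Izumo1: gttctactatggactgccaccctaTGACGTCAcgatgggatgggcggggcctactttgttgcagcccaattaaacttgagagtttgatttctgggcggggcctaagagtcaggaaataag

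Kif17: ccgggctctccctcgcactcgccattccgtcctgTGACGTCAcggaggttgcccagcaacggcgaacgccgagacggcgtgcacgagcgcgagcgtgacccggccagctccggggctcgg

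Spag4: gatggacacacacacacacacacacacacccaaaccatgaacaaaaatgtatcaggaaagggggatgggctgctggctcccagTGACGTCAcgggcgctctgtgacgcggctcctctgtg

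Among the condensation genes, the stretches are chr16:10792106-10792225 for Prm2, chr16:10796824-10796943 for Prm1, chr1:73015900-73016019 for Tnp1 and chr16:10788656-10788775 for Tnp2, each on the minus strand. The match in Prm2 is TATAAA on the other strand, 31 bases before the start. For Leydig genes the stretches are chr13:64089202-64089321 for Hsd17b3 and chr5:87591612-87591731 for Sult1e1.

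Prm2: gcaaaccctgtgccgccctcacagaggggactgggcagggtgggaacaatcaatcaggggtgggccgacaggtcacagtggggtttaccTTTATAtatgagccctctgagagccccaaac

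Prm1: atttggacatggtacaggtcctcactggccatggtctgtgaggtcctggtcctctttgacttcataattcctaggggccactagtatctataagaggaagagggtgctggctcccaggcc

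Tnp1: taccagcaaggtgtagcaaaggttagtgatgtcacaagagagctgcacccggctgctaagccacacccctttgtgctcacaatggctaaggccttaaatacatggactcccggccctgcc

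Tnp2: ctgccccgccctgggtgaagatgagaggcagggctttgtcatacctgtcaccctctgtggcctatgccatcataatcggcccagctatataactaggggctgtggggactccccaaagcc

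Hsd17b3: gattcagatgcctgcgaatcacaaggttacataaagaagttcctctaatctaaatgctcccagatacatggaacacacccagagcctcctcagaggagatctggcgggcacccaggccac

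Sult1e1: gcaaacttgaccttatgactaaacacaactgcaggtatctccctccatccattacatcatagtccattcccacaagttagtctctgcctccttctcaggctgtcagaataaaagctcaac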

How the data were processed

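The FPKM values are those the authors deposited for 23983 genes. They mapped reads to GRCm38 with TopHat2 2.1.0 and Bowtie 1.1.2 and computed FPKM with Cuffdiff of Cufflinks 2.2.1. The scaling between libraries is not stated. The values were handled in python 3.11.15 using pandas 2.3.3 and numpy 2.4.6, intervals came from scipy 1.17.1 and plots from matplotlib 3.10.9. Differences are log2 ratios with a pseudocount of 1 FPKM over genes with at least 2 FPKM in the d24 or the adult library, and 2-fold was the limit for a call. No p-value was computed, because each age has 1 library. No paired analysis was possible because the 2 ages come from different animals.

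Fragments were recovered for 9854 of the 12401 genes, those with 1 curated RefSeq transcript or with transcripts whose lengths differ by at most 1.1-fold, by dividing each value by what a single fragment contributes. For a transcript of 1 kb this was 0.0455 FPKM at d24 and 0.112 FPKM in the adult. Among values of up to 20 fragments, 91.7% and 91.6% lay within 0.05 of a whole number. The 95% interval of a ratio is the exact Clopper-Pearson one and covers counting only. Recovery and calls were tested on simulated data, and the outcome is not reported here.

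Gene lists by function, the comparisons, the rule for named genes and the alternatives, except where said, were written before the values were opened for this report. Earlier results of these data were known by then, so the choice of lists and members was not independent of the data. Named genes are members of the lists, the 20 largest rises and the 20 largest falls among genes with at least 10 FPKM in either library, and the 10 highest genes of each library. Alternatives were filters of 1 FPKM, 5 FPKM or none, a pseudocount of 0.1 FPKM, rescaling to an FPKM sum of 1000000, by the upper quartile, to the same number of fragments or to a median of 0, and a counting interval beyond 1. Promoters come from RefSeq transcripts of GRCm38.p6, and those of chromosome 18 were left out. Shared 50-base stretches come from GENCODE transcripts. The search for TATAAA and a rescaling of both FPKM sums to their geometric mean were added after the values were seen. Single values of 2 list members are not reported here.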

Additional observations from a re-analysis of the deposited data

How the results depend on the processing

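The number of higher genes was 1423 as reported. It was 904 after both libraries were brought to an FPKM sum of 1000000, 938 with the same number of recovered fragments and 825 with both FPKM sums at their geometric mean, which was chosen after the values were seen, and it lay between 1016 and 1644 under the other alternatives. By construction these rescalings multiply every adult to d24 ratio by 0.717, 0.796 and 0.717 before the pseudocount is added, and the first also enlarges all values beside the pseudocount. All 904 and all 938 were among the 1423. The number of lower genes was 54 as reported, 29 with a filter of 5 FPKM, 157 with a pseudocount of 0.1 FPKM, 666 with the FPKM sum, 431 with the geometric mean, 182 with the upper quartile and 151 with the same number of recovered fragments. A higher filter leaves fewer genes and a smaller pseudocount enlarges ratios of low values by construction. Which scaling is closest to the RNA content of the tissue was not tested. Medians of 47 of 47 gene lists moved by less than 0.585 log2 units under each of 5 alternatives, and those whose sign changed are given with their values above. The FPKM sum and the upper quartile have log2 factors of -0.48 and -0.30, smaller in size than this limit. For these rescalings the count could hardly differ and is no test of stability. Of 171 named genes past 2-fold higher, 123 remained so with the FPKM sum and 139 with the upper quartile. All 171 did with a pseudocount of 0.1 FPKM, and 19 of 19 named lower genes remained so under each of these settings. The last 2 outcomes are no test of stability. A smaller pseudocount enlarges ratios, and the rescalings lower every adult to d24 ratio by construction. By construction no named gene past 2-fold could change sign. The factors of 0.717 and 0.812 are smaller than 2-fold changes, and a pseudocount turns no direction. Depth limits low values. At d24 2 FPKM of a 1 kb transcript rests on 43.9 fragments and in the adult on 17.8, and 3 fragments correspond to 0.137 and 0.337 FPKM, so changes of genes near these levels were not detectable unless large. With 1 library per age the spread between animals is unknown.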

Other observations

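Several condensation genes lie close together. On chromosome 16, Tnp2, Prm3, Prm2 and Prm1 follow each other on the minus strand within 8889 bases. On chromosome 1, the start of Tnp1 on the minus strand and that of the long noncoding gene 1700027A15Rik on the plus strand are separated by 136 bases. These genes had 9.01-fold and 19.1-fold higher values in the adult, with 1631 FPKM for the noncoding gene. The pair was looked at after its values were seen, and shared regulation was not tested.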
